A study of Mus musculus with 12 samples.

Results

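The genes described here encode 10 chains of cytokine receptors of the mouse: Il2ra, Il2rb and Il2rg of the IL-2 receptor, Il4ra and Il13ra1 of the IL-4 and IL-13 receptors, Il5ra and Csf2rb of the IL-5 receptor, and Il21r, Il10ra and Il6st of related receptors. They were chosen because the cells had been cultured with IL-2, IL-4 and IL-5, and every probe whose transcript accession belongs to one of them was used. The array held 12 such probes among 55681 non-control probes, with 2 probes each for Il4ra and Csf2rb and 1 for each other gene. Of the 10 genes, 9 were measured well enough above background to be tested, among 12295 named genes and 22981 features tested in all. Il13ra1 was too dim.

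The study measured RNA of splenic B cells on 12 single-colour Agilent arrays, with 3 samples in each of 4 groups. Knockout cells came from B1-8hi:Sub1fl/fl-Mb1-Cre mice and were either stimulated for 72 h or resting. Control cells came from B1-8hi:Sub1fl/fl mice, without Cre, and were likewise stimulated or resting. The culture medium in the labels held CD40 ligand at 0.2 ng/mL and NP-ficoll at 0.01 ng/mL, with IL-2 at 100 U/mL, IL-4 at 5 ng/mL and IL-5 at 1.5 ng/mL, and the resting samples are described as lacking stimuli. Both genotypes carry the B1-8hi heavy chain, a knock-in that gives B cells high affinity for the hapten NP, and floxed alleles of Sub1, which encodes the transcriptional coactivator PC4. Mb1-Cre is inserted into the B-cell gene Cd79a, so the loss of Sub1, the presence of Cre and the changed Cd79a allele cannot be told apart. The labels give no ages and do not say whether the 3 samples of a group came from separate mice, so the p-values rest on sample-to-sample spread that may be technical.

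Cytokine receptors of this family signal as pairs or trios of chains. The alpha chains bind a particular cytokine, while shared chains carry the signal: the common gamma chain encoded by Il2rg serves the receptors for IL-2, IL-4 and IL-21, the common beta chain encoded by Csf2rb serves IL-3, IL-5 and GM-CSF, and gp130, encoded by Il6st, serves the IL-6 group. The chains carry no kinase of their own and signal through bound JAK kinases, which activate STAT factors. In B cells, IL-4 acts through STAT6 on class switching and on the low-affinity IgE receptor, IL-2 and IL-5 act through STAT5 on growth, and IL-21 acts through STAT3 on plasma cell formation.

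A level in the text is the log2 of the spot intensity relative to the 75th percentile of its own array, so 0 marks that percentile. Levels of different genes come from different probes and are not set against each other. A change is called where limma's p-value, adjusted by Benjamini-Hochberg over all 22981 features, is under 0.05. Between 24.3% and 76.8% of spots lay well above background on an array, and no spot was saturated, as far as the deposited spot flags show. Sub1 itself, the check of the labels, averaged 6.84 ± 0.11 in stimulated knockout cells and 8.05 ± 0.22 in stimulated control cells (SD, n = 3 each), a called fall of the knockout by 1.21 (SE 0.19, limma adjusted p = 0.0114). In resting cells Sub1 averaged 5.65 ± 0.24 in the knockout and 6.03 ± 0.04 in the control, a change of -0.38 that was not called (limma adjusted p = 0.268). All 10 B-cell markers were well above background on at least 1 array of every group. The arrays of replicates 1 and 2 lay on slide 1 and those of replicate 3 on slide 2. The Y-linked Ddx3y and Eif2s3y, chosen after their values were seen, were well above background only on the 2 arrays of control replicate 1, and Xist only on the other 10. By these genes, control replicate 1 had a source of the other sex than control replicates 2 and 3. Whether the remaining samples came from separate mice stays unknown. Il2rg and Il13ra1 lie on the X chromosome, and results that depend on that replicate are given without it.

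**Figure D1:**
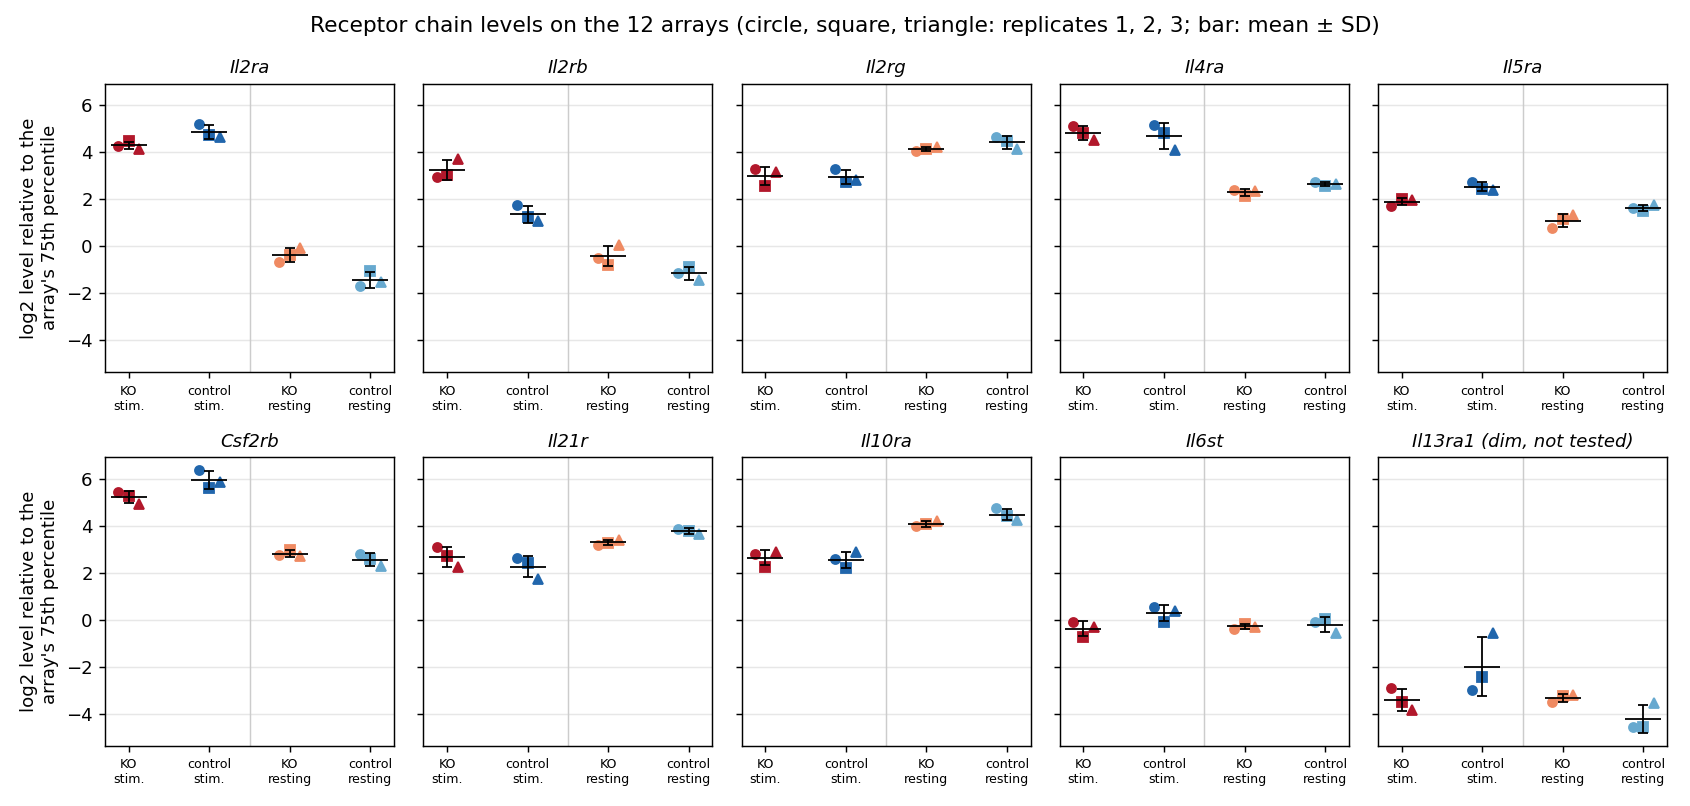
Level of each receptor chain on the 12 arrays, as log2 intensity relative to the array's 75th percentile. Points are samples (circle, square and triangle for replicates 1, 2 and 3), and bars are the mean ± SD of 3 samples. Il2ra and Il2rb lie above 1 on every stimulated array and below 0.1 on every resting array, while Il2rg and Il10ra lie lower on every stimulated array than on any resting one.

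The first question was how the receptors of stimulated cells differed from those of resting cells. The labels print the same culture medium for all samples and do not say whether resting cells were cultured, so the stimuli and the time in culture cannot be told apart in these changes. In knockout cells 5 of the 9 tested genes (Il2ra, Il2rb, Il4ra, Csf2rb and Il5ra) rose with stimulation and 2 fell (Il10ra and Il2rg), while Il21r and Il6st were not called. Over all features, 10.9% were called higher and 5.2% lower in this comparison, 16.1% together. In control cells the same 5 genes rose, Il10ra, Il21r and Il2rg fell, and Il6st was not called, against 14.7% of all features higher, 13.1% lower and 27.8% together. The median change of the 9 genes was 0.81 in knockout cells, where that of all features was 0.10, and 0.90 in control cells, where that of all features was 0.04. Each of these called changes had the same sign on slide 1 and on slide 2.

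Markers of cell types moved in the same comparisons. Of 6 NK-cell markers tested, 3 rose with stimulation in knockout cells, Gzma (6.59), Nkg7 (1.56) and Eomes (2.58), and 1 rose in control cells, Gzma (4.16), with median changes of 1.79 in knockout and 0.25 in control cells. Of 9 T-cell markers, 2 rose in knockout cells, while 1 rose and 1 fell in control cells. Of 11 macrophage and granulocyte markers, 5 fell in knockout and 6 fell in control cells, with medians of -1.89 and -2.04. Both tested erythroid markers fell in knockout cells and 1 of them in control cells. Of the 10 B-cell markers, 3 fell in knockout and 8 fell in control cells, with medians of -0.56 and -1.34. The part of these shifts in the receptor changes was not tested.

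The alpha chain of the IL-2 receptor, Il2ra (CD25), which turns the receptor into its high-affinity form, had the largest change of the 10 genes. In knockout cells its levels were 4.26, 4.47 and 4.16 after stimulation, against -0.65, -0.37 and -0.07 at rest. Control cells had 5.21, 4.72 and 4.67 after stimulation, against -1.71, -1.03 and -1.53 at rest. No level of a stimulated sample came near that of a resting one in either genotype. The rise in knockout cells was 4.66 (SE 0.25, 25.3-fold, 95% interval 4.12 to 5.20, limma adjusted p = 5.76e-06), the 14th largest of all features. The rise in control cells was 6.29 (SE 0.25, 78.2-fold, 95% interval 5.74 to 6.83, limma adjusted p = 7.49e-07), the 6th largest.

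The means of Il2ra were 4.30 ± 0.16 in stimulated knockout and 4.87 ± 0.30 in stimulated control cells, and -0.36 ± 0.29 in resting knockout and -1.42 ± 0.35 in resting control cells (SD, n = 3 each). Ranked by level, stimulated control cells came before stimulated knockout, resting knockout and resting control cells, and no neighbouring groups overlapped. The difference between the rises, knockout minus control, was -1.63 (SE 0.35, 95% interval -2.40 to -0.86) and was not called (limma adjusted p = 0.109), with 0.144% of all features called in this interaction. Slide 1 gave -1.46 and slide 2 gave -1.97. The call depends on the settings: the interaction had an adjusted p of 0.0135 in limma with a trend and robust variances, and 0.0418 with the percentile taken over spots detected on all arrays. Over all 23 alternatives the interaction ranged from -1.82 to -0.84, with limma adjusted p up to 0.651.

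The beta chain Il2rb (CD122), a signalling chain shared by the IL-2 and IL-15 receptors and abundant on NK cells, rose in both genotypes. Of the NK-cell markers named above, Gzma was called higher in both genotypes, and Nkg7 and Eomes in knockout cells only. Levels in knockout cells were 2.95, 3.03 and 3.73 after stimulation, against -0.51, -0.78 and 0.06 at rest. In control cells they were 1.77, 1.26 and 1.08 after stimulation, against -1.12, -0.89 and -1.43 at rest. None of the 4 groups overlapped with its neighbour in the order. The rise was 3.65 in knockout cells (SE 0.30, 12.5-fold, limma adjusted p = 4.89e-05) and 2.51 in control cells (SE 0.30, 5.72-fold, limma adjusted p = 0.000157). The difference between these rises, 1.13 (SE 0.43), was not called (limma adjusted p = 0.363).

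The common gamma chain Il2rg went the other way. Knockout cells had levels of 3.29, 2.57 and 3.17 after stimulation, against 4.08, 4.15 and 4.23 at rest, and control cells had 3.29, 2.75 and 2.84 after stimulation, against 4.65, 4.48 and 4.13 at rest. Every stimulated sample lay below every resting one. The change was -1.14 in knockout cells (SE 0.24, limma adjusted p = 0.00934) and -1.46 in control cells (SE 0.24, limma adjusted p = 0.00121), which is 2.21-fold and 2.75-fold lower. The knockout call was lost with no filter on dim probes (adjusted p = 0.0713) and on slide 1 alone (adjusted p = 0.0929). So among the 3 chains of the IL-2 receptor, the alpha and beta chains rose and the gamma chain fell in both genotypes.

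Of the IL-4 receptor, the alpha chain Il4ra, which binds IL-4 and docks STAT6, rose. On its brighter probe, knockout cells had levels of 5.13, 4.83 and 4.51 after stimulation, against 2.41, 2.13 and 2.35 at rest. Control cells had 5.17, 4.84 and 4.10 after stimulation, against 2.74, 2.58 and 2.64 at rest. The states did not overlap, and replicate 3 was the lowest stimulated sample in both genotypes. The rise was 2.52 in knockout cells (SE 0.27, 5.75-fold, limma adjusted p = 0.000191) and 2.05 in control cells (SE 0.27, 4.15-fold, limma adjusted p = 0.000275). Within slides it was 2.70 on slide 1 and 2.16 on slide 2 in the knockout, and 2.35 and 1.47 in the control.

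The second Il4ra probe gave smaller changes. Its means were -0.15 ± 0.49 in stimulated and -0.93 ± 0.68 in resting knockout cells, and 0.19 ± 0.24 in stimulated and -0.72 ± 0.30 in resting control cells (SD, n = 3 each). In a limma fit with every probe as its own feature, its change was 0.78 in the knockout (adjusted p = 0.182) and 0.91 in the control (adjusted p = 0.0834), neither of them called. This probe lay well above background on only 2 of the 3 resting knockout arrays. What either probe covers of the transcript was not analysed here.

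Il13ra1, which pairs with Il4ra in the receptor for IL-13, was well above background on only 2 of the 12 arrays, knockout resting replicate 3 and control stimulated replicate 3, both on slide 2. Its measured values were -2.88, -3.48 and -3.85 in stimulated and -3.49, -3.24 and -3.18 in resting knockout cells. They were -2.98, -2.41 and -0.55 in stimulated and -4.54, -4.55 and -3.52 in resting control cells. The highest value was that of stimulated control replicate 3, and since the other values lie mostly below detection, these numbers set no order among the groups.

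Il5ra, the chain that binds IL-5, showed the smallest called rise. Knockout cells had levels of 1.73, 2.0 and 1.96 after stimulation, against 0.78, 1.17 and 1.31 at rest. Control cells had 2.75, 2.45 and 2.39 after stimulation, against 1.62, 1.49 and 1.76 at rest. Within each genotype the states did not overlap, but the stimulated knockout samples (1.90 ± 0.14) overlapped with the resting control samples (1.63 ± 0.13; SD, n = 3 each). The rise was 0.81 in knockout cells (SE 0.20, 1.75-fold, limma adjusted p = 0.0187) and 0.90 in control cells (SE 0.20, 1.87-fold, limma adjusted p = 0.00601). The knockout call was lost without any 1 of 3 arrays, with adjusted p = 0.0743 without resting replicate 1, 0.0691 without stimulated replicate 2 and 0.0566 without stimulated replicate 3. It was also lost with the percentile over spots detected on all arrays (0.47, adjusted p = 0.0618) and on slide 1 alone (0.89, adjusted p = 0.112). The control call was lost without both arrays of control replicate 1 (0.79, adjusted p = 0.0616), and both calls were lost with no filter on dim probes.

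Csf2rb, the signalling partner of Il5ra, had the second largest rise in control cells. Levels in knockout cells were 5.44, 5.30 and 4.95 after stimulation, against 2.76, 3.0 and 2.73 at rest. In control cells they were 6.37, 5.63 and 5.88 after stimulation, against 2.83, 2.61 and 2.28 at rest. All stimulated samples lay well above all resting ones, and the resting genotypes overlapped. The rise was 2.40 in knockout cells (SE 0.24, 5.28-fold, limma adjusted p = 0.000132) and 3.39 in control cells (SE 0.24, 10.4-fold, limma adjusted p = 1e-05). The second Csf2rb probe, at 1.68 ± 0.08 in stimulated and -0.82 ± 0.35 in resting knockout cells, against 2.65 ± 0.26 and -0.87 ± 0.02 in control cells (SD, n = 3 each), gave rises of 2.50 and 3.53 in the fit of every probe. Csf2rb2, a mouse paralogue nearly identical in sequence that serves IL-3 alone, rose by 2.42 in knockout and 3.77 in control cells (limma adjusted p = 3.53e-05 and 2.08e-06), and whether the probes of either gene also bind the other's RNA was not tested.

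**Figure D2:**
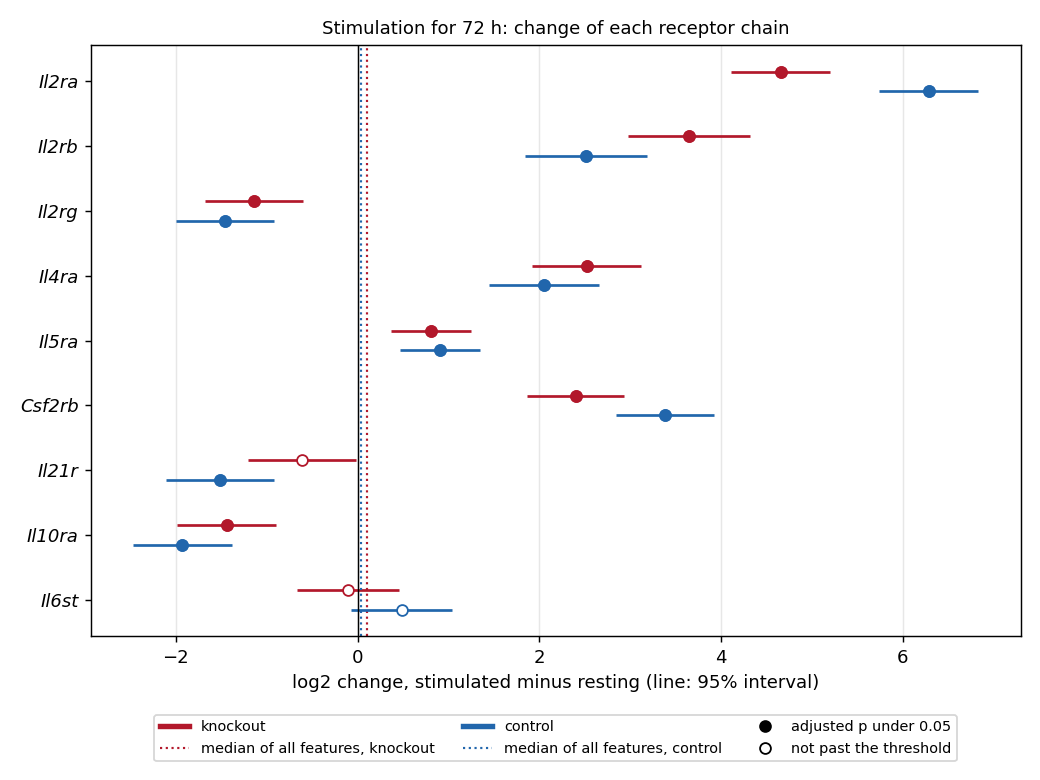
Log2 change with stimulation (stimulated minus resting) of the 9 tested receptor chains in knockout and in control cells. Points are limma estimates, filled where the adjusted p is under 0.05, lines are 95% intervals and dotted lines the median of all features. Il2ra lies farthest to the right, at 4.66 and 6.29, and Il2rg, Il21r and Il10ra lie to the left of 0.

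The start regions of the ligand-binding chains that rose together, Il2ra, Il4ra and Il5ra, are shown for their sequence context. They are RefSeq windows of the GRCm38.p6 build, each running 250 bases before to 50 bases after the gene's start, written 5′ to 3′ on the gene's strand, and 7 of the 10 genes had such a window. Capitals mark a match to the NF-kB consensus on either strand in Il2ra and Il4ra, and to the STAT6-type motif, TTC and GAA separated by 4 bases, in Il5ra. The Il2ra window is chr2:11642542-11642841 (plus strand), that of Il4ra chr7:125552021-125552320 (plus strand) and that of Il5ra chr6:106748988-106749287 (minus strand).
Il2ra: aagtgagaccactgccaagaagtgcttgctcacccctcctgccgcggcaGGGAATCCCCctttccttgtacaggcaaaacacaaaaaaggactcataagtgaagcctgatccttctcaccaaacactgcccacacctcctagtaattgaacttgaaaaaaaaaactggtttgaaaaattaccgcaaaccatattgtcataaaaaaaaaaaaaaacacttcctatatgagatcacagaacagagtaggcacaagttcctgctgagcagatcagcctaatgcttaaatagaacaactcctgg
Il4ra: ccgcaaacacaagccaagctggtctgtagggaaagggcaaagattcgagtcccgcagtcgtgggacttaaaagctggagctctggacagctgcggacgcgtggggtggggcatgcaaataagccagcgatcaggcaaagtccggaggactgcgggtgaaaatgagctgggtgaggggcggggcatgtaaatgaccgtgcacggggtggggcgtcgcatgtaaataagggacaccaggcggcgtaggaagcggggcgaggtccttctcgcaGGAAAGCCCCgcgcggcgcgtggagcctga
Il5ra: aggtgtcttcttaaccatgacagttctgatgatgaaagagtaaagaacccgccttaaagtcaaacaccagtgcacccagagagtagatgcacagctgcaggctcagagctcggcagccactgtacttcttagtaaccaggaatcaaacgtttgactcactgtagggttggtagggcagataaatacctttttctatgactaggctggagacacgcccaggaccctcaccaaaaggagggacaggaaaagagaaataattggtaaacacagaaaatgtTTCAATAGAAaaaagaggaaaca
Among 32851 such windows, 5.80% hold the NF-kB consensus, 6.95% the STAT6-type motif and 8.30% the STAT5-type motif TTCNNNGAA, counting both strands. None of the 7 windows held TTCNNNGAA, and those of Il2rg, Il21r, Il6st and Il13ra1 held none of the motifs. The Il4ra window held 25 CG dinucleotides, against 3 in that of Il2ra, 4 in that of Il5ra and a median of 7 over all windows. A match is a string of letters in this window and says nothing of binding, and nothing on binding was measured.

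The related receptor chains Il10ra, Il21r and Il6st, which bind no cytokine of the mix, were lower or not called after stimulation. Il2rg, which serves IL-2 and IL-4, fell, while Csf2rb2, which serves IL-3 alone, rose. Whether binding a cytokine of the mix bears on the direction was not tested. Il10ra, the ligand-binding chain for the anti-inflammatory IL-10, had levels of 2.83, 2.27 and 2.89 in stimulated knockout cells, against 3.99, 4.09 and 4.23 in resting ones. In control cells its levels were 2.61, 2.20 and 2.89 after stimulation, against 4.77, 4.44 and 4.27 at rest. The states did not overlap. The change was -1.44 in knockout cells (SE 0.24, limma adjusted p = 0.00265) and -1.93 in control cells (SE 0.24, limma adjusted p = 0.00021), or 2.72-fold and 3.80-fold lower.

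Il21r, the receptor for the helper T-cell cytokine IL-21, had levels of 3.1, 2.74 and 2.24 in stimulated and 3.21, 3.29 and 3.42 in resting knockout cells. In control cells it had 2.63, 2.44 and 1.77 after stimulation, against 3.89, 3.81 and 3.67 at rest. Replicate 3 was the lowest stimulated sample in both genotypes. The fall in control cells was called (-1.51, SE 0.27, 2.86-fold lower, limma adjusted p = 0.00177). The change in knockout cells, -0.61 (SE 0.27), was not (limma adjusted p = 0.168), although it was with quantile normalization (-0.89, adjusted p = 0.0215) and with the percentile over spots detected on all arrays (-0.95, adjusted p = 0.0213). The difference between the genotypes' changes, 0.90 (SE 0.38, 95% interval 0.06 to 1.74), was not called either (limma adjusted p = 0.434).

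Il6st lay close to the 75th percentile in all groups. It had -0.09, -0.72 and -0.30 in stimulated and -0.37, -0.16 and -0.27 in resting knockout cells, and 0.57, -0.09 and 0.40 in stimulated and -0.08, 0.06 and -0.57 in resting control cells. Its change was -0.10 in the knockout (SE 0.25, 95% interval -0.66 to 0.45, limma adjusted p = 0.865) and 0.49 in the control (SE 0.25, 95% interval -0.07 to 1.05, limma adjusted p = 0.194). Stimulated control replicate 2 was not well above background for this gene.

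The second question was how the knockout differed from the control in the same state. In stimulated cells 1 of the 9 genes was called, Il2rb, which was higher in the knockout, against 3.46% of all features called (1.21% higher and 2.26% lower). The 3 knockout samples (2.95, 3.03 and 3.73) lay above the 3 control samples (1.77, 1.26 and 1.08), as they did for 10.9% of all features. The change was 1.87 (SE 0.30, 3.65-fold, 95% interval 1.2 to 2.54, limma adjusted p = 0.0129), and within slides it was 1.48 (slide 1) and 2.65 (slide 2). It was no longer called on slide 1 alone (adjusted p = 0.134), with no filter on dim probes (1.87, adjusted p = 0.100) or without both arrays of control replicate 1 (2.07, adjusted p = 0.0597). The call was kept without any single array.

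Markers of other cells that carry Il2rb also differed between the genotypes in stimulated cells. The summed linear level of 8 NK-cell marker genes was 161, 169 and 354 in stimulated knockout samples, against 30.2, 29.4 and 29.7 in stimulated control samples. The single gene Gzma made up 89.1% to 92.3% of this sum in the knockout and 72.5% to 81.8% in the control. The other 7 genes summed to 17.7, 14.3 and 27.4 in the knockout, against 5.49, 7.51 and 8.17 in the control, again without overlap. In control cells these 7 genes overlapped between the states, at 5.54 to 6.96 at rest and 5.49 to 8.17 after stimulation. In resting cells the sum of all 8 overlapped between the genotypes, at 8.04 to 11.8 in the knockout and 5.89 to 9.56 in the control. Replicate 3 of the stimulated knockout, the highest of its group for these sums, was also the highest for Il2rb, and it was the only array of its group on slide 2. Of the 6 NK markers tested, 3 were called higher in the stimulated knockout and none lower: Nkg7 (1.57, limma adjusted p = 0.0106), a granule protein, Eomes (2.55, adjusted p = 0.0345), a transcription factor of NK and memory T cells, and Gzma (3.1, adjusted p = 0.0346), a granule protease. Ncr1 (1.29, adjusted p = 0.271), Klrb1c (2.14, adjusted p = 0.232) and Prf1 (0.50, adjusted p = 0.598) were not called in limma. Klrd1 and Klrk1, receptors of NK cells, were not tested, since neither was well above background on all 3 arrays of any group, the stimulated knockout included. Neither was well above background on any stimulated control array, and Klrk1 was on no resting control array either.

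Of 9 T-cell markers tested, Zap70 (2.11, limma adjusted p = 0.0171), a kinase of the T-cell receptor, and Cd3g (2.24, adjusted p = 0.0481), a chain of that receptor, were called higher in the stimulated knockout and none lower. The summed level of the 10 T-cell marker genes ranged over 35.8 to 47.5 in stimulated knockout and 21.6 to 26.2 in stimulated control samples. Of this sum, 55.6% to 71.5% in the knockout and 55.9% to 77.5% in the control came from the single gene Lck, and without Lck the ranges, 10.2 to 19.6 in the knockout and 4.85 to 11.5 in the control, overlapped. Cd3e (0.39, limma adjusted p = 0.657) and Cd4 (-0.18, adjusted p = 0.87) were not called. In resting cells the sum of all 10 ranged over 13.9 to 24.7 in the knockout and 15.0 to 19.2 in the control. Of 11 macrophage and granulocyte markers tested, 4 were called higher in the stimulated knockout, among them C1qb (2.37, limma adjusted p = 0.00206), a complement protein of macrophages. Csf1r (1.00, limma adjusted p = 0.252), Itgam (0.04, adjusted p = 0.966) and Cd14 (-0.26, adjusted p = 0.841) were among those not called. The summed level of the 12 such genes on the array was 29.6 to 37.6 in stimulated knockout and 11 to 26.8 in stimulated control samples. Itgam alone made up 23.6% to 42.2% of this sum in the knockout and 60.4% to 67.1% in the control. Without Itgam the ranges were 17.1 to 28.7 in the knockout and 3.97 to 8.80 in the control. Of 2 erythroid markers tested, 1 was called higher. The part of these markers' cells in the level of Il2rb was not tested, and in bulk RNA more cells of a type and more RNA per cell cannot be told apart. The 10 B-cell markers had a median change of 0.04 in the same comparison, with Cd79a, the site of the Cre insertion, called lower (-1.10, limma adjusted p = 0.0343).

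**Figure D3:**
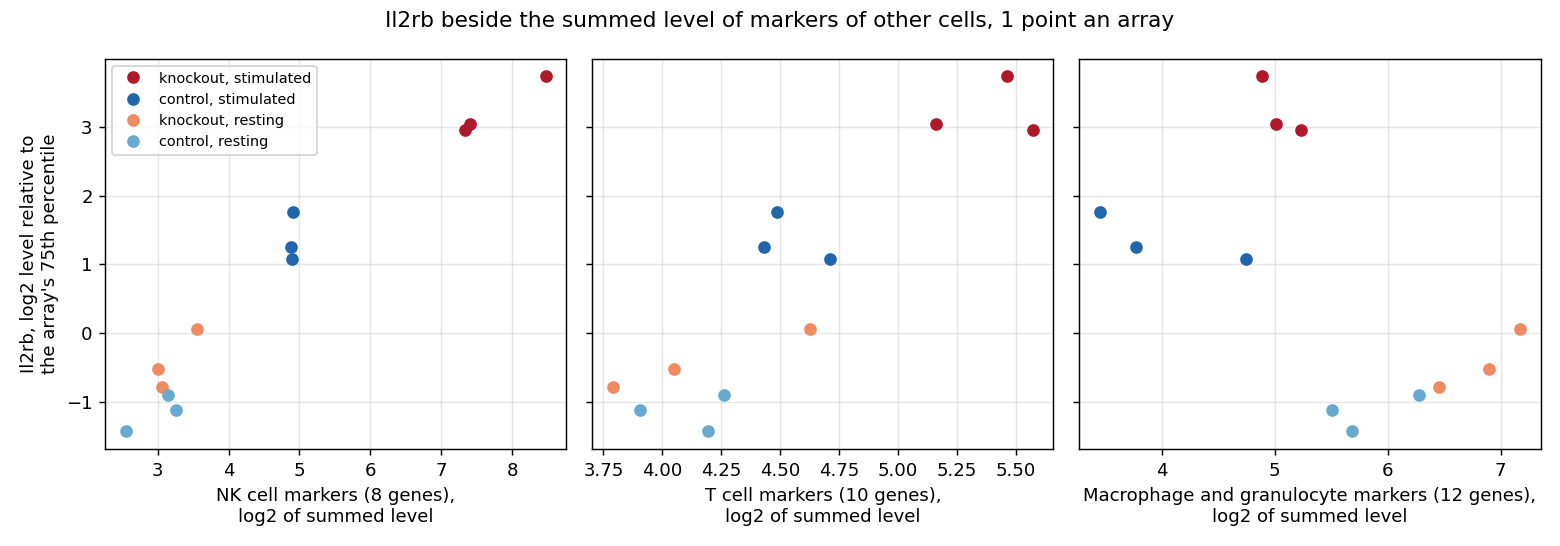
Il2rb level of each array (log2 relative to the array's 75th percentile) against the log2 of the summed linear level of the NK-cell, T-cell and macrophage and granulocyte marker genes, 1 point an array. The 3 stimulated knockout arrays are the highest for Il2rb and for the NK-cell and T-cell sums, which come mostly from Gzma and Lck, and resting knockout arrays are the highest for the macrophage and granulocyte markers.

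The other chains of the stimulated knockout were not called. For 4 of them, Il2ra, Il5ra, Csf2rb and Il6st, all 3 knockout samples lay below all 3 control samples (for Il6st by less than the rounding of its levels), as they did for 14.1% of all features. Il5ra had 1.73, 2.0 and 1.96 in the knockout and 2.75, 2.45 and 2.39 in the control, a change of -0.63 (SE 0.20, 95% interval -1.07 to -0.19, limma adjusted p = 0.109). Csf2rb changed by -0.73 (SE 0.24, limma adjusted p = 0.125) on its brighter probe. Its second probe changed by -0.98 (SE 0.21) and was called in the fit of every probe (adjusted p = 0.0337), and the brighter probe was called with trend and robust variances (adjusted p = 0.0379). Il2ra was at -0.57 (SE 0.25, adjusted p = 0.209) and Il6st at -0.66 (SE 0.25, adjusted p = 0.168). Over the 23 alternatives the smallest falls were -0.23 for Il5ra, -0.29 for Csf2rb, -0.14 for Il2ra and -0.26 for Il6st. Their limma adjusted p reached 0.513, 0.502, 0.806 and 0.555, in the same order. The placement of the samples was read under the main scaling only. For the shared chain Il2rg and for Il4ra, Il10ra and Il21r the genotypes overlapped. The changes were 0.05 for Il2rg (95% interval -0.49 to 0.59), 0.12 for Il4ra (-0.48 to 0.72), 0.10 for Il10ra (-0.44 to 0.64) and 0.42 for Il21r (-0.18 to 1.01).

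In resting cells limma called none of the 9 genes, against 0.0131% of all features, and 3 of the 9 genes had an unadjusted p under 0.05, as did 19.7% of all features. Il2ra and Il2rb were higher in all 3 knockout samples than in any control sample, a placement that 9.8% of all features shared. Il2ra had -0.65, -0.37 and -0.07 in the knockout and -1.71, -1.03 and -1.53 in the control. Its change was 1.06 (SE 0.25, 2.08-fold, 95% interval 0.51 to 1.60, limma adjusted p = 0.161), or 0.86 within slide 1 and 1.46 within slide 2. It was called with trend and robust variances (adjusted p = 0.0467) and with the percentile over spots detected on all arrays (1.41, adjusted p = 0.0386). Over all 23 alternatives the Il2ra change ranged from 0.70 to 1.41, with limma adjusted p up to 0.523. Il2rb changed by 0.74 (SE 0.30, limma adjusted p = 0.238). Slide 1 gave 0.36 and slide 2 gave 1.48.

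The genes Il4ra, Il5ra, Il21r and Il10ra were lower in all 3 resting knockout samples than in any control sample, as were 26.9% of all features. Their changes were -0.35, -0.54, -0.48 and -0.39, with adjusted p of 0.4, 0.227, 0.294 and 0.33 in limma. The median of all features in this comparison was itself -0.21. Il2rg (-0.27), Csf2rb (0.25) and Il6st (-0.07) overlapped between the genotypes. In these resting samples the summed level of macrophage and granulocyte markers was 87.6 to 144 in the knockout and 45.4 to 77.6 in the control, and the 10 B-cell markers had a median change of -0.58. Whether these move the receptor levels was not tested.

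**Figure D4:**
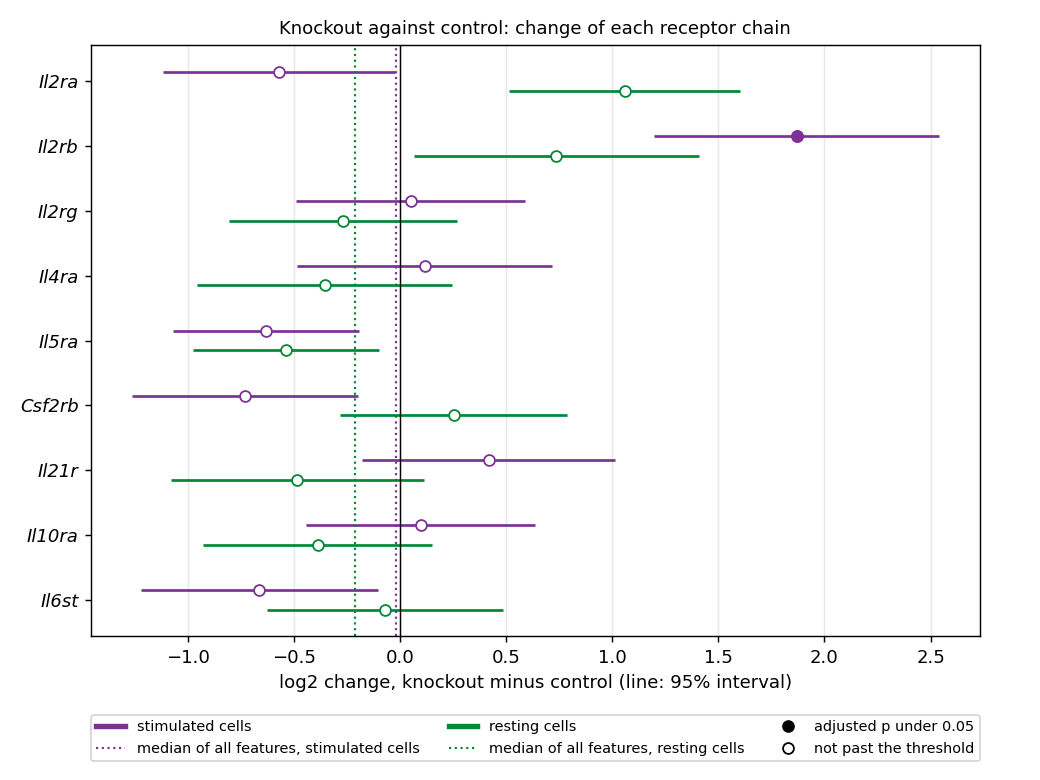
Log2 change between genotypes (knockout minus control) of the 9 tested receptor chains in stimulated and in resting cells. Points are limma estimates, filled where the adjusted p is under 0.05, lines are 95% intervals and dotted lines the median of all features, which is -0.02 in stimulated and -0.21 in resting cells. Il2rb in stimulated cells, at 1.87, is the filled point.

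Other genes of the pathway give the setting of these changes. Of 20 further cytokine receptor chains tested of 28 listed, 5 rose and 2 fell with stimulation in knockout cells and 4 rose and 5 fell in control cells, with median changes of 0.08 in knockout and -0.08 in control cells. Over all features the shares were 10.9% higher and 5.2% lower in knockout and 14.7% higher and 13.1% lower in control cells. Lifr, the receptor for leukemia inhibitory factor that pairs with gp130, rose by 3.0 in knockout and 3.47 in control cells (limma adjusted p = 0.000308 and 5.41e-05). Ifngr1, the ligand-binding chain for interferon gamma, changed by -1.58 in knockout and -2.15 in control cells (limma adjusted p = 0.000202 and 1.67e-05). Il12rb1, a chain of the IL-12 and IL-23 receptors, was the only one of the 20 called between the genotypes. Over all features, 3.46% were called between the genotypes in stimulated cells and 0.0131% in resting cells. Il12rb1 was higher in the stimulated knockout by 1.42 (SE 0.24, limma adjusted p = 0.0154). Its levels were 2.42, 2.32 and 3.1 in stimulated knockout and 1.44, 1.08 and 1.08 in stimulated control cells.

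All 11 JAK and STAT genes were tested. Jak2, the kinase bound to the common beta chain, rose by 1.66 in knockout and 1.35 in control cells (limma adjusted p = 0.000215 and 0.000307). Jak1, which serves the IL-2, IL-4 and IL-10 receptors, fell by 0.86 in knockout and by 1.63 in control cells (limma adjusted p = 0.00686 and 7.14e-05). Stat5a (1.08) and Stat4 (1.12) were also called higher and Jak3 (-0.71), the kinase of the common gamma chain, lower in stimulated knockout cells, and Stat6 (-0.99) and Stat3 (-0.75) lower in stimulated control cells. None of the 11 was called between the genotypes in either state, against 3.46% of all features in stimulated and 0.0131% in resting cells. Of 19 ligand genes, 5 were bright enough to test, and the one call was Clcf1, a cytokine of the gp130 group, which fell by 1.16 in control cells (limma adjusted p = 0.0238).

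Of 17 tested genes known as targets of STAT5 or STAT6 in lymphocytes, 11 were called higher and 2 lower after stimulation in knockout cells. In control cells 10 were called higher and 2 lower. Over all features, 10.9% were called higher and 5.2% lower in knockout cells, and 14.7% higher and 13.1% lower in control cells. The median change was 1.81 in each genotype. Cish, a feedback inhibitor of STAT5 signalling, rose by 6.15 in knockout and 7.46 in control cells (limma adjusted p = 5.76e-06 and 1.17e-06). Socs2, an inhibitor of the same family, rose by 4.86 in knockout and 6.71 in control cells (limma adjusted p = 3.05e-05 and 2.61e-06). Fcer2a, which encodes the low-affinity IgE receptor CD23 and is raised by IL-4 in B cells, changed by -3.09 in knockout and -2.67 in control cells (limma adjusted p = 3.37e-05 and 2.34e-05). Between the genotypes, Ccl17, a chemokine, was called higher (2.96, limma adjusted p = 0.0223) and Fcer2a lower (-1.01, limma adjusted p = 0.0421) in the stimulated knockout. Ccl17 averaged 0.01 in stimulated knockout, -2.95 in stimulated control, -2.90 in resting knockout and -4.04 in resting control cells. It was well above background on no resting control array, and the size of its change rests on dim control values.

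The named genes whose pattern over the 12 arrays was most like that of the ligand-binding chains were found by the root mean square difference of the centred log2 levels. For Il2ra they were Socs2 (0.319), Nfil3 (0.461) and the pseudogene Speer6-ps1 (0.506), against a median of 2.78 for all named genes. For Il4ra they were Rab35 (0.214), Cldnd1 (0.215) and Bdh1 (0.233), against a median of 1.23. For Il5ra they were Glrx3 (0.103), Helb (0.123) and Yaf2 (0.126), against a median of 0.664. Socs2 had means of 4.38 in stimulated knockout, 5.08 in stimulated control, -0.48 in resting knockout and -1.62 in resting control cells, the same order of groups as Il2ra. The points share arrays and scaling, and the measure is a description.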

How the data were processed

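RNA of splenic B cells was amplified as amino allyl RNA, coupled to Cy3 and hybridised, 1 sample to an array, per the labels' protocols. The values used are processed signal intensities on a linear scale, with background subtracted, which the authors deposited. They were made with Agilent Feature Extraction 10.7.3.1 per the file headers, while the submitters' processing notes give version 9.1. Arrays had not been scaled to each other. The deposited series matrix holds these intensities to within 0.497%.

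Outlier spots were set to missing. Each log2 intensity was expressed relative to the 75th percentile of its array (59305 spots that are not controls), and spots of a probe were averaged. Accessions were matched to a RefSeq gene list, which named 26413 of 55681 probes, and promoter windows came from RefSeq too. A probe was kept if well above background on all 3 arrays of a group, and the brightest stood for its gene. Il13ra1 did not pass and was not tested.

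Changes were tested in limma (version 3.58.1, R 4.3.3, with tables read by data.table in its release 1.17.8). The fit (lmFit, then eBayes) used every array and 4 group means, leaving 8 residual degrees of freedom. Benjamini-Hochberg adjustment ran over 22981 features, of which 12295 were named genes. The steps were tested on simulated data. The number of arrays limits the precision.

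The receptor genes and the lists (other receptor chains, JAK and STAT genes, ligands, STAT5 or STAT6 targets, and markers of B, T, NK, macrophage and granulocyte, and erythroid cells) were chosen with earlier results of these data known. The text names all 10 receptor genes, up to 4 called members of a list per comparison with the smallest p, Sub1, Cd79a and the 3 genes nearest in pattern to Il2ra, Il4ra and Il5ra. Ncr1, Klrb1c, Prf1, Klrd1, Klrk1, Cd3e, Cd4, Csf1r, Itgam, Cd14, Jak3, Ddx3y, Eif2s3y and Xist were named after their values were seen. One called gene of the lists is not reported here.

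Shared mice among samples of one replicate number are not stated in the labels. As a check of pairing, each array's deviation from its group mean was correlated with that of its same-numbered partner. In stimulated knockout against control cells r was 0.35, 0.33 and 0.48, and between the states of control cells 0.42, 0.43 and 0.51, while other comparisons had pairs at or below 0.1. The replicate number was therefore also fitted as a block. Further alternatives were quantile normalization, the percentile over 12977 spots detected on all arrays, normexp with an offset of 50, no filter, every probe as a feature, the series matrix, the slide as a block, slide 1 alone, trend and robust variances, and leaving out arrays.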

Additional observations from a re-analysis of the deposited data

How the results depend on the processing

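The 45 changes of the 9 tested genes over 5 comparisons were recomputed under 23 alternatives, 1035 values in all: 996 kept their direction and their side of the threshold, 13 lost the call, 7 gained it and 19 changed sign, all 19 among changes that were not called. With the replicate number as a block no call of a receptor gene changed, and the Il2rb change in stimulated cells was 1.87 (limma adjusted p = 0.0164). For the stimulated knockout comparison, 1 gene called became 0 with no filter, 0 on slide 1 alone and 0 without both arrays of control replicate 1, and 2 with trend and robust variances. The counts in resting cells and in the interaction, each 0, became 1 with trend and robust variances and 1 with the percentile over spots detected on all arrays. The causes were not tested, although slide 1 and the sets without replicates have fewer arrays and no filter adds features. The changes that turned sign were small. In stimulated cells Il2rg was at -0.0905 and Il4ra at -0.029 on slide 1, and with arrays left out Il2rg ranged over -0.0883 to 0.270, Il4ra over -0.184 to 0.350 and Il10ra over -0.0841 to 0.291. In resting cells Il2rg was at 0.0866 with quantile normalization and 0.0852 with the percentile over detected spots, and Il6st at 0.28 with that percentile and -0.257 to 0.0593 with arrays left out. Il6st with stimulation in the knockout was at 0.0108 with normexp and -0.242 to 0.0706 with arrays left out. The interaction of Il5ra was at 0.0145 without both arrays of control replicate 1, and -0.249 to 0.0169 over all sets without arrays.

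Over all features the counts of calls moved more. In the stimulated knockout comparison 796 were called, against 14 to 2349 under the alternatives, and in resting cells 3 against 0 to 90. With stimulation 3692 were called in the knockout, against 1543 to 4942, and 6397 in the control, against 3624 to 8519. The interaction had 33, against 0 to 336. The share of higher calls in the stimulated knockout comparison, 34.8%, was 57.1% with quantile normalization and 84.2% with the percentile over detected spots, under which the median change of all features was 0.39. With stimulation the share of higher calls was 67.7% in the knockout and 52.9% in the control, 51.6% and 41.8% with quantile normalization, and 36.3% and 29.2% with the percentile over detected spots. Signal over background limits the dim probes: with no filter the change of Il13ra1 with stimulation in control cells was 2.22 (limma adjusted p = 0.0413), although only 1 of these 6 arrays was well above background.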
